A study of Mus musculus with 6 samples.

Results

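The transcripts described here are those of the mitochondrial genome (mtDNA), taken as every gene of the count table whose symbol starts with mt-. This rule, which uses no measured value, chose 35 of 49315 genes: 13 encode proteins and 22 encode transfer RNAs. The reference annotation lists 37 mtDNA genes, and the other two, the ribosomal RNA genes mt-Rnr1 and mt-Rnr2, were not analysed here. RNA came from the gastrocnemius, a calf muscle, of male C57BL6J mice that received an AAV9 vector (an adeno-associated virus) at 5 months of age and were sacrificed 5 months later. In 3 libraries (replicates 31, 34 and 36) the virus was AAV9-HSA-CAAHR, which carries a constitutively active aryl hydrocarbon receptor (AHR), that is, the mouse receptor without its ligand-binding domain. In the other 3 (replicates 42, 43 and 46) it was AAV9-HSA-GFP, which carries green fluorescent protein. HSA stands for the promoter of human skeletal actin, which drove both transgenes in muscle fibres and not in the other cells of the muscle, and no uninjected muscle was among the libraries. The study asked what chronic AHR activation does in muscle fibres, including their mitochondrial energetics.

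The mammalian mitochondrial genome is a small circle that is transcribed from both strands as long precursors, which are cut at the transfer RNA genes that lie between most protein genes. Its protein genes encode core subunits of the respiratory chain and of ATP synthase, while all remaining subunits, the RNA polymerase, the processing enzymes and the aminoacyl-tRNA synthetases come from nuclear genes. Skeletal muscle, above all its slow oxidative fibres, is rich in mitochondria. Stretches of mtDNA have also been inserted into nuclear chromosomes during evolution, and a read that fits such a copy as well as the mitochondrial gene has no unique position. Only uniquely placed reads were counted in these data.

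The libraries held 43432994 to 58825752 counts in genes. Cyp1a1, the classical AHR target, was at 1231, 1680 and 1517 CPM (a gene's counts relative to a library total scaled by TMM) in the CAAHR libraries and at 6.78, 7.74 and 5.85 CPM in the GFP libraries, and each library matched its label. The muscle label was borne out by Acta1, the actin of skeletal muscle fibres, at 21660 to 22004 CPM against 35143 to 37674 CPM. Summed levels of slow fibre markers were 649 to 2783 CPM in the CAAHR libraries and 228 to 461 CPM in the GFP libraries, those of fast fibre markers were 170292 to 224825 against 249909 to 254531 CPM, and those of B cell markers were 8.38 to 18.4 against 122 to 397 CPM. The summed markers of adipocytes, endothelium, fibroblasts, macrophages and erythroid cells overlapped between the groups, and Ucp1 of the adipocyte list was at 0 in all 6 libraries. In the edgeR test, 1 of 9 slow fibre markers was called higher in CAAHR muscle (adjusted p under 0.05). Called lower were 4 of 10 fast fibre, 3 of 5 B cell and 1 of 5 tested adipocyte markers. Of all genes tested, 7.6% were called in either direction. In whole muscle, fewer cells of a type and less RNA per cell cannot be told apart. The paper measured selected immune genes by qPCR and found them no lower in CAAHR muscle than in muscle that received no virus. It takes this to mean that AAV-GFP raised a local immune response, which was not tested here.

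A nuclear copy of part of the mitochondrial genome, on chromosome 1, bears on which of its genes can be counted by unique reads. When the 37 mtDNA transcripts of GENCODE M21 (GRCm38) were compared with all other transcripts of that release, 7 pseudogenes that lie side by side on the minus strand of chr1:24611535-24616188 matched mtDNA genes in the same order. Between them they held 4140 matched bases with 2 mismatches. The pseudogenes are Gm29216 (483 bases of mt-Co1), Gm28661 (681 bases of mt-Co2), Gm10925 (678 of mt-Atp6), Gm28437 (783 of mt-Co3), Gm28438 (345 of mt-Nd3), Gm10222 (294 of mt-Nd4l) and Gm28439 (876 of mt-Nd4). Their matches span 4653 bases of the mitochondrial genome, from chrM:6390-11042. The start of mt-Co2, shown because it is the length of 1 read of 150 bases without a single difference from Gm28661 (chr1:24615416-24615565, minus strand), is at chrM:7013-7162 and reads:
mt-Co2 and Gm28661: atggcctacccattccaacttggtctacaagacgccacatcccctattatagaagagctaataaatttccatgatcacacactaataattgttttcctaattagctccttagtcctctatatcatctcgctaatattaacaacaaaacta

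Both differences that a script found between the mtDNA genes and these pseudogenes lie near the start of a match. They are shown because no other base differs within the matched stretches. In mt-Nd3 the difference is T3C, with the mtDNA base first and positions counted from 1 at the first base of the mtDNA gene. In mt-Co1 it is A1066T. The windows around them are chrM:9459-9491 and chrM:6390-6423 on the plus strand, chr1:24613087-24613119 and chr1:24616155-24616188 on the minus strand, and the differing base is in capitals:
mt-Nd3: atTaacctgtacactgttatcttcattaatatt
Gm28438: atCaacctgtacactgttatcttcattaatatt
mt-Co1: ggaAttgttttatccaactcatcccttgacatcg
Gm29216: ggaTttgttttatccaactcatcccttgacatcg

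Of all windows of 150 bases that can be laid on each gene, the share identical to a nuclear transcript was 99.4% for mt-Co2, 99.4% for mt-Atp6, 99.8% for mt-Co3, 97.97% for mt-Nd4l and 97.0% for mt-Nd3. It was 59.2% for mt-Nd4 and 23.6% for mt-Co1, which the copy holds in part, and 0% for mt-Nd1, mt-Nd2, mt-Nd5, mt-Nd6 and mt-Cytb. For mt-Atp8 the share was also 0%, although the gene lies inside the matched stretch by its position (chrM:7766-7969). No pseudogene is annotated between the copies of mt-Co2 and mt-Atp6, and the chromosome 1 sequence between the pseudogenes was not analysed here. By position, 6 protein genes (mt-Co2, mt-Atp8, mt-Atp6, mt-Co3, mt-Nd3 and mt-Nd4l) and 5 transfer RNA genes (mt-Ts1, mt-Td, mt-Tk, mt-Tg and mt-Tr) lie inside the stretch, mt-Co1 and mt-Nd4 reach into it, and the other 5 protein genes and 17 transfer RNA genes lie outside. Older copies exist too. Gm13340 on chromosome 2 holds 1545 bases of mt-Co1 at 97.6% identity, with 37 mismatches.

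The levels of the mtDNA protein genes divided along this map. Per kilobase of gene, the 7 genes outside the stretch or only partly in it had means over 6 libraries of 4703 to 23275 CPM, and the 6 genes inside it had means of 12.8 to 128 CPM. The groups of genes did not meet in any library: the lowest value among the 7 was 3579 CPM per kb, for mt-Nd5, and the highest among the 6 was 193 CPM per kb, for mt-Nd3. The neighbours mt-Co1, which the copy holds in part, and mt-Co2, which it holds nearly whole, show the step. Both encode catalytic core subunits of cytochrome c oxidase (complex IV) and lie within the same precursor. mt-Co1 was at 29859, 19916 and 22511 CPM per kb in CAAHR replicates 31, 34 and 36 and at 21138, 25160 and 21066 in GFP replicates 42, 43 and 46. mt-Co2 was at 14.4, 9.80 and 12.4 CPM per kb and at 10.9, 14.7 and 14.5 CPM per kb in the same libraries. These are levels of uniquely counted reads, and the part of the RNA that was left uncounted was not measured.

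**Figure D1:**
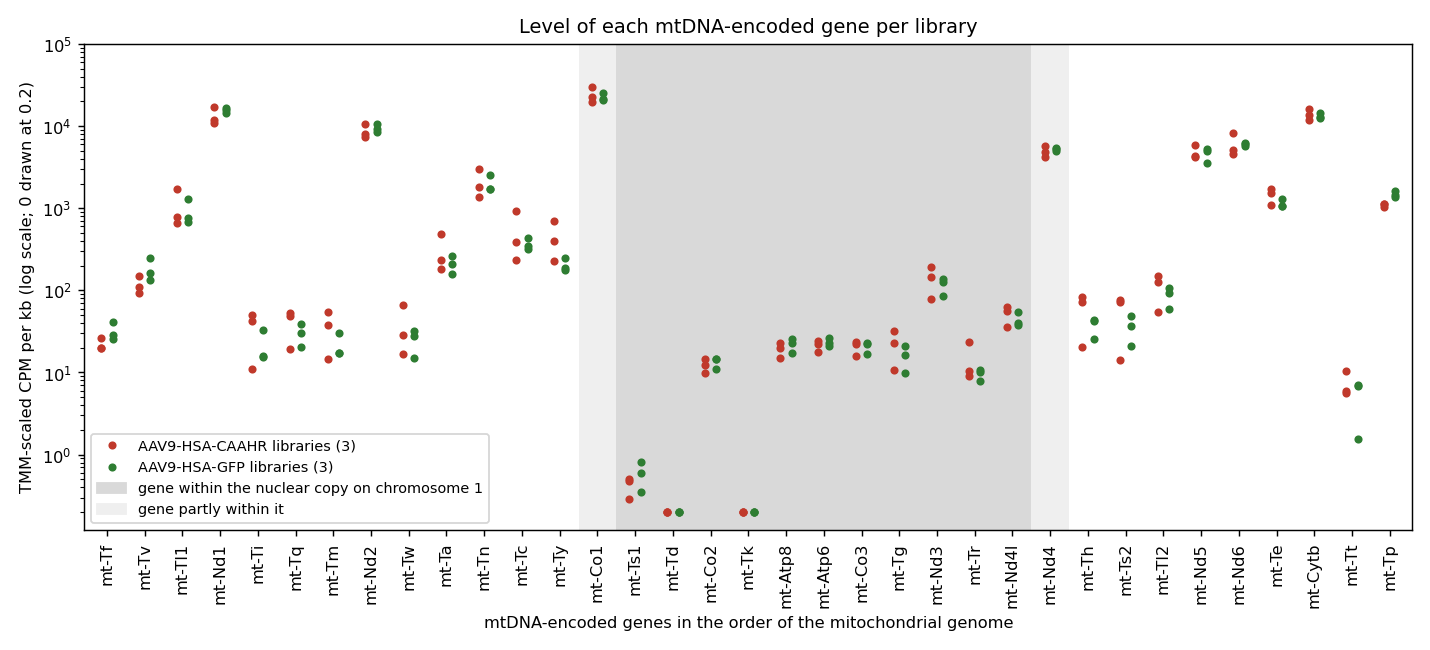
Level of each of the 35 mtDNA genes in the 6 libraries, in TMM-scaled CPM per kb on a log scale (values of 0 drawn at 0.2), with genes in genome order, red points for the 3 AAV9-HSA-CAAHR libraries, green points for the 3 AAV9-HSA-GFP libraries and grey shading for genes within the nuclear copy. The 6 shaded protein genes lie at means of 12.8 to 128 and the 7 others at 4703 to 23275, in both groups of libraries.

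Among the well-counted protein genes, mt-Co1 was highest in 6 of 6 libraries (23275 ± 3694 CPM per kb, SD, n = 6). mt-Nd1, a core subunit of complex I (NADH dehydrogenase), followed at 14489 ± 2563. mt-Cytb, the cytochrome b of complex III, was at 13558 ± 1482. Their order was not the same in both groups, which was seen in the values and not tested. In the GFP libraries mt-Nd1 (14631 to 16843 CPM per kb) lay wholly above mt-Cytb (12536 to 14533), and in the CAAHR libraries, with means of 13226 and 13840, their ranges overlapped. The complex I subunit mt-Nd2 was at 9082 ± 1389. mt-Nd6, the one protein gene of the light strand and also a complex I subunit, was at 5969 ± 1263, above mt-Nd4 (5065 ± 510) in 6 of 6 libraries. Whether the libraries kept strand is not given in the sources used here. Without it, reads from the opposite strand cannot be told apart from those of mt-Nd6. mt-Nd4 exceeded mt-Nd5 (4703 ± 841), a further complex I subunit, in 5 of 6. With its counts divided by the 502 bases outside the copy in place of its 1378 bases, mt-Nd4 came to 13904 ± 1400 CPM per kb. Its mean then fell between those of mt-Nd1 and mt-Cytb. mt-Co1, with 1062 bases outside the copy, came to 33860. Reads that cross the edge of the copy can also be unique, and these lengths leave that out. The place of mt-Nd4 beside mt-Nd1 and mt-Cytb is therefore not firm.

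Within the copied stretch the order was mt-Nd3 (128 ± 42.2 CPM per kb), mt-Nd4l (47.9 ± 11.4), mt-Atp6 (22.4 ± 3.05), mt-Atp8 (20.7 ± 3.89), mt-Co3 (20.6 ± 3.44) and mt-Co2 (12.8 ± 2.09). mt-Nd3 and mt-Nd4l encode small complex I subunits, mt-Atp6 and mt-Atp8 membrane subunits of ATP synthase, and mt-Co3 a core subunit of complex IV. mt-Nd3 stood above the others in each library, at 78.7 CPM per kb or more. mt-Atp6, mt-Atp8 and mt-Co3 were not separated, with mt-Atp8 above mt-Co3 in 3 of 6 libraries. mt-Atp8 and mt-Atp6 overlap by 43 bases, and how reads across the overlap were assigned is not given in the sources used here.

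**Figure D2:**
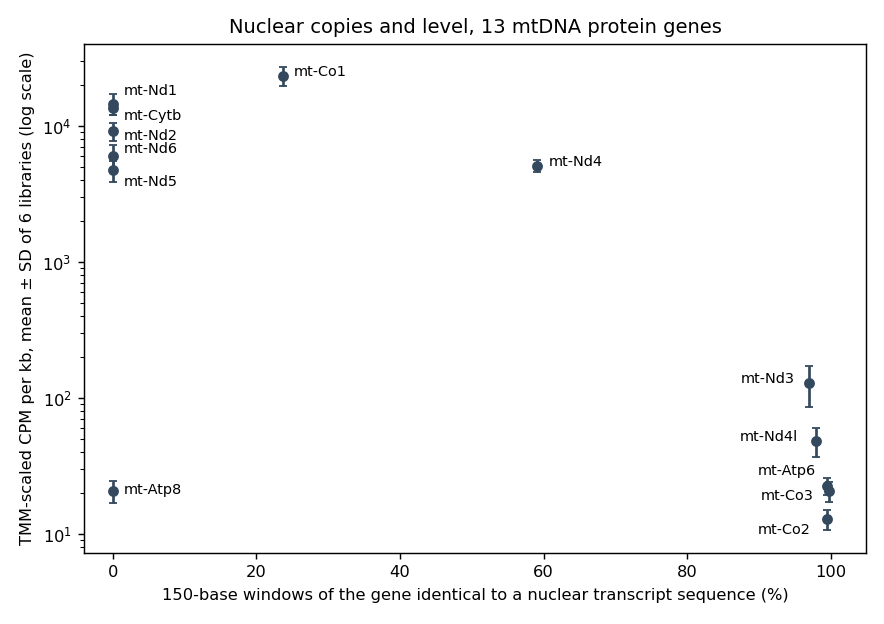
Level of the 13 mtDNA protein genes (mean ± SD of 6 libraries, TMM-scaled CPM per kb, log scale) against the percent of their 150-base windows that are identical to a nuclear transcript. The 5 genes at 97.0% or more lie at means of 12.8 to 128, mt-Co1 (23.6%) and mt-Nd4 (59.2%) lie with the genes at 0%, and mt-Atp8, whose stretch of chromosome 1 holds no annotated pseudogene, lies low at 0%.

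The pseudogenes themselves had counts. Per library, Gm28661 had 266 to 439 counts where mt-Co2 had 359 to 526, a ratio of 1.13 to 1.76 mtDNA counts per pseudogene count. The ratio was 1.36 to 2.58 for mt-Atp6 over Gm10925 and 1.87 to 3.24 for mt-Co3 over Gm28437. It was wider for mt-Nd4l over Gm10222 (5.36 to 10.5) and for mt-Nd3 over Gm28438 (30.4 to 71.7). It reached 832 to 1472 for mt-Nd4 over Gm28439 and 7695 to 12030 for mt-Co1 over Gm29216. For mt-Nd4 and mt-Co1 the counts are those of the whole gene, while the pseudogenes match only 876 and 483 bases of them. None of the 7 pseudogenes passed the edgeR test between CAAHR and GFP muscle, with adjusted p-values of 0.398 to 0.926 and 20 to 561 counts per library.

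Transfer RNA genes are 59 to 75 bases long, shorter than 1 read, so that an untrimmed read reaches past the gene. How reads that also touch a neighbouring gene were assigned is not given in the sources used here. Levels of transfer RNA genes per kilobase are therefore not on one footing with those of the protein genes. Selection for poly(A) tails also works against mature transfer RNAs. Whether the reads came from mature transfer RNAs or from longer precursors was not tested. The sequences of the 4 genes that the results turn on, and of 1 that was never counted, are shown with the anticodon in capitals, where a script found it between paired stem bases:
mt-Tp: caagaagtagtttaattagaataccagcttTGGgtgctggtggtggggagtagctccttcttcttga
mt-Ty: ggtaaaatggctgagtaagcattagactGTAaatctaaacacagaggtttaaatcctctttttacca
mt-Tn: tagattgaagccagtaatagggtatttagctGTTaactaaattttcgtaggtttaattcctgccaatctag
mt-Te: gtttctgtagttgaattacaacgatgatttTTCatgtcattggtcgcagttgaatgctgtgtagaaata
mt-Td: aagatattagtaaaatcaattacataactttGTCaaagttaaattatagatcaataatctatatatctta
The first 4 are read from the minus strand of GENCODE M21 on GRCm38 (chrM:15356-15422, chrM:5260-5326, chrM:5089-5159 and chrM:14071-14139) and the last from the plus strand (chrM:6942-7011). They carry proline, tyrosine, asparagine, glutamate and aspartate.

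The highest transfer RNA genes were mt-Tn (2037 ± 632 CPM per kb), mt-Te (1290 ± 274), mt-Tp (1280 ± 219), mt-Tl1 for leucine (984 ± 439), mt-Tc for cysteine (442 ± 252), mt-Ty (320 ± 197) and mt-Ta for alanine (255 ± 120). Of these 7 genes, 6 are coded on the minus strand, and mt-Tl1 is the exception. The minus strand carries 8 of the 22 transfer RNA genes in all, and the other two, mt-Tq and mt-Ts1, were at 35.0 and 0.507 CPM per kb. The order of mt-Te and mt-Tp, next to each other over all 6 libraries, differed between the groups. This switch was picked out after the values were seen and was not tested. In the CAAHR libraries mt-Te was at 1540, 1099 and 1698 CPM per kb, above mt-Tp at 1116, 1037 and 1128 in each, and in the GFP libraries it was at 1051, 1291 and 1060, below mt-Tp at 1366, 1598 and 1431 in each. Counting took account of strand if the libraries kept it, and whether they did is not given in the sources used here. Without it reads from the opposite strand cannot be told apart from those of these genes. Inside the copied stretch, mt-Td and mt-Tk had 0 counts in all 6 libraries, a count that allows up to 3 counts per library for counting error. There mt-Ts1 had 1 to 3 counts, mt-Tr was at 11.9 and mt-Tg at 18.8 CPM per kb. The lowest gene outside the stretch was mt-Tt for threonine, at 6.23 ± 2.83 CPM per kb.

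The amount of uniquely counted mtDNA transcript did not separate CAAHR from GFP muscle. It leaves out the ribosomal RNA genes and all reads without a unique position, so the whole amount of mtDNA transcript was not measured. The mtDNA genes took 12.1%, 7.86% and 9.08% of all counts in CAAHR replicates 31, 34 and 36 and 8.87%, 9.93% and 8.63% in GFP replicates 42, 43 and 46. The highest and the lowest share both belonged to CAAHR libraries, and the GFP libraries lay between them. Means were 9.68% ± 2.20 (SD, n = 3) and 9.14% ± 0.694 (SD, n = 3), a difference of 0.541 percentage points (two-sided exact permutation test, p = 0.8, where 3 libraries against 3 cannot go below 0.1). The direction rested on CAAHR replicate 31, without which the difference was -0.678 points, and it also turned, to -0.632 points, when the 20 most abundant nuclear genes were left out of the total. Protein genes made up nearly all of it, at 7.82% to 12.05% of counts, and transfer RNA genes took 0.0355% to 0.0758% (difference 0.00808 points, exact permutation p = 0.7). CAAHR replicate 31, the library with the largest mtDNA share, also had the largest sum of slow fibre markers (2783 CPM), and CAAHR replicate 34, with the smallest share, had the smallest such sum of the CAAHR libraries (649 CPM). The GFP libraries did not follow this order. All had smaller sums of slow fibre markers (228 to 461 CPM) than CAAHR replicate 34 and larger mtDNA shares, and GFP replicate 46, with the largest sum among them, had the smallest share. The part of fibre type in the mtDNA share was not tested.

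**Figure D3:**
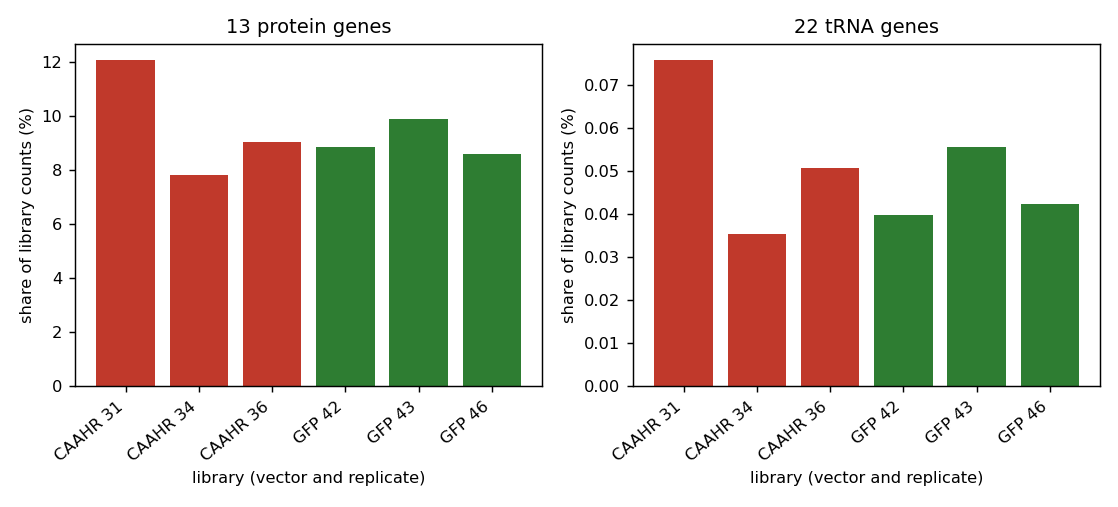
Share of all counts of each library, in percent, that fell in the 13 mtDNA protein genes (left) and the 22 mtDNA transfer RNA genes (right), with 1 bar per library, red for AAV9-HSA-CAAHR and green for AAV9-HSA-GFP. CAAHR replicate 31 has the tallest bar and CAAHR replicate 34 the shortest in both panels, and the GFP bars lie between.

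Gene by gene, 32 of the 35 members passed the filter on low counts, all but mt-Ts1, mt-Td and mt-Tk. In the edgeR quasi-likelihood test 1 of these 32 had an adjusted p under 0.05, or 3.125%, where 7.6% of all 15847 genes tested did. The one gene, mt-Tp, was lower in CAAHR muscle. Lower calls made up 4.57% of all genes and higher calls 3.04%, and no member was called higher. None of the 13 protein genes was called, and their adjusted p-values ran from 0.437 to 0.984. For the 6 protein genes inside the copied stretch, the test covers only their few uniquely counted reads. By DESeq2, too, mt-Tp was the one member called, against 10.4% of all genes. At an unadjusted p under 0.05 there were 3 members, mt-Tp, mt-Tv and mt-Ty, against 23.9% of all genes. The median log2 fold change (CAAHR over GFP) was -0.03 over the 13 protein genes and 0.50 over the 19 transfer RNA genes tested, beside 0.01 over all genes. Over all 32 members it was 0.22, and it changed sign to -0.11 without CAAHR replicate 31, which was the highest library for 22 of the 32. CAAHR replicate 34 was the lowest CAAHR library for 29 of the 32.

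mt-Tp, the proline transfer RNA gene, was at 74.8, 69.5 and 75.6 CPM in the CAAHR libraries and at 91.5, 107 and 95.9 CPM in the GFP libraries. It was the one member whose groups did not overlap in CPM, where 14.9% of all genes lay without overlap in the lower direction and 15% in the higher. Its log2 fold change was -0.42 ± 0.10 (SE, edgeR adjusted p = 0.0296). The call is not firm. Without CAAHR replicate 31 its adjusted p was 0.0693, without CAAHR replicate 36 it was 0.0799, without GFP replicate 43 it was 0.125 and without GFP replicate 46 it was 0.0714, while the log2 fold change stayed between -0.47 and -0.35. Scaling by library size alone gave an adjusted p of 0.0583.

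In CPM the groups overlapped for all other tested transfer RNA genes. mt-Ty, next to mt-Co1 on the opposite strand, had the highest log2 fold change, 1.10 ± 0.43 (SE, edgeR adjusted p = 0.203). Its values were 46.2, 15.1 and 26.4 CPM in CAAHR muscle and 11.8, 16.8 and 12.5 CPM in GFP muscle, and CAAHR replicate 34 lay within the GFP range. mt-Tv for valine, which lies between the ribosomal RNA genes, had the lowest, -0.63 ± 0.26 (edgeR adjusted p = 0.187), with 10.4, 7.54 and 6.48 CPM against 9.30, 17.3 and 11.2 CPM. mt-Te was at 106.3, 75.8 and 117 CPM against 72.6, 89.1 and 73.1 CPM, again with CAAHR replicate 34 inside the range of the GFP libraries. Of the remaining tested genes, mt-Tf for phenylalanine had a log2 fold change of -0.54 (edgeR adjusted p = 0.216). The others, mt-Tm (0.71), mt-Ti (0.68), mt-Th (0.66), mt-Ts2 (0.59), mt-Tr (0.58), mt-Tw (0.57), mt-Ta (0.53), mt-Tc (0.51), mt-Tt (0.50), mt-Tg (0.47), mt-Tq (0.44), mt-Tl2 (0.35) and mt-Tl1 (0.22), had SEs of 0.39 to 0.63 and edgeR adjusted p-values of 0.399 to 0.839. mt-Tn, at a log2 fold change of 0.05, spanned 96.9 to 216 CPM within the CAAHR group alone and 120 to 183 CPM in the GFP group. Of the 19 genes, 16 had a fitted fold change above 0 and 3 below, a split that describes these libraries, in which CAAHR replicate 31 was highest for 12 of the 19.

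**Figure D4:**
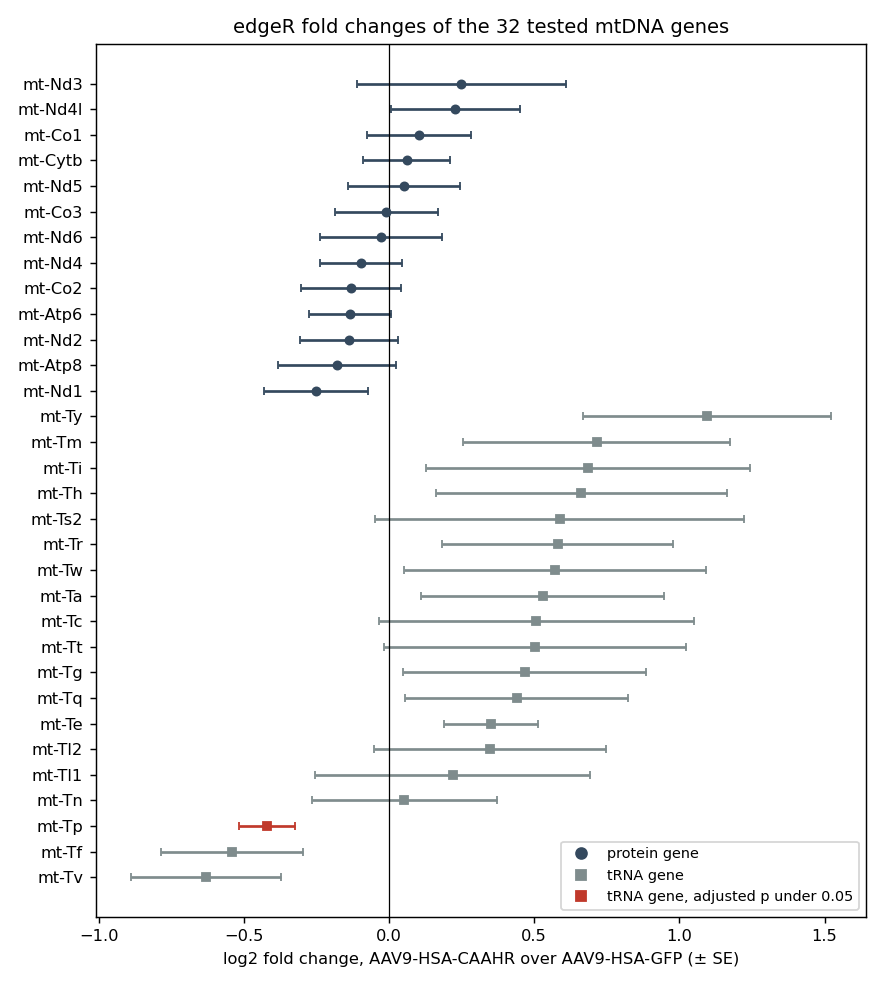
Log2 fold change of AAV9-HSA-CAAHR over AAV9-HSA-GFP muscle (± SE, edgeR, 3 libraries a group) for the 32 tested mtDNA genes, with circles for protein genes and squares for transfer RNA genes. The protein genes lie between -0.25 and 0.25, the transfer RNA genes between -0.63 and 1.10, and only mt-Tp, in red, has an adjusted p under 0.05.

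Among the complex I genes, log2 fold changes ran from -0.25 ± 0.18 for mt-Nd1 to 0.25 ± 0.36 for mt-Nd3 (SE, edgeR adjusted p = 0.437 and 0.745). mt-Nd1 was at 16188, 10455 and 11330 CPM against 14002, 16118 and 15105 CPM, so that 2 CAAHR libraries lay below all GFP libraries and the other above them. mt-Nd6 was at 4235, 2343 and 2623 CPM against 2946, 3166 and 3273 CPM, with the same pattern. Reads from the opposite strand may be among these mt-Nd6 counts. mt-Cytb of complex III had a log2 fold change of 0.06 ± 0.15 (edgeR adjusted p = 0.859). Of the complex IV genes, mt-Co1 was at 46133, 30770 and 34779 CPM against 32658, 38872 and 32547 CPM, a log2 fold change of 0.10 ± 0.18 (edgeR adjusted p = 0.792). mt-Co2 (-0.13 ± 0.17) and mt-Co3 (-0.01 ± 0.18) had adjusted p-values of 0.707 and 0.984 in edgeR. The ATP synthase genes mt-Atp6 and mt-Atp8 were at -0.13 ± 0.14 and -0.18 ± 0.20, with adjusted p-values of 0.624 and 0.654 in edgeR. In these groups of genes CAAHR replicate 31 was the highest library for 10 of 13 and CAAHR replicate 34 the lowest CAAHR library for 13 of 13. Inside the copied stretch lie mt-Nd3, mt-Nd4l, mt-Co2, mt-Co3, mt-Atp6 and mt-Atp8, and their fold changes describe only their few uniquely counted reads. Whether the uncounted part of their RNA differed between the groups was not measured.

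Each gene was then taken as a share of its own library's mtDNA counts, which sets the differences in mtDNA amount aside. The groups lay apart for 3 of the 13 protein genes. In CPM, which is not the same measure, 29.9% of all tested genes lay apart. mt-Co1 made up 40.03%, 39.1% and 39.7% of mtDNA counts in the CAAHR libraries and 36.3%, 37.5% and 36.7% in the GFP libraries. All CAAHR values lay above all GFP values, a difference of 2.80 percentage points between means of 39.6% ± 0.493 and 36.8% ± 0.625 (SD, n = 3 each). mt-Nd1 went the other way, with 14.0%, 13.3% and 12.9% against 15.5%, 15.5% and 17.01%, means of 13.4% ± 0.569 and 16.0% ± 0.846. mt-Nd2 was also lower, at 9.62%, 9.69% and 9.38% against 10.8%, 10.6% and 10.02%. For each of these 3 genes the two-sided exact permutation test gave p = 0.1, the smallest it can give with 3 libraries a group. Any groups of this size without overlap give that value, so it adds nothing to the ranges. The shares of mt-Cytb, mt-Nd4, mt-Nd5 and mt-Nd6 overlapped between the groups (exact permutation p = 0.4, 0.4, 0.9 and 0.5).

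**Figure D5:**
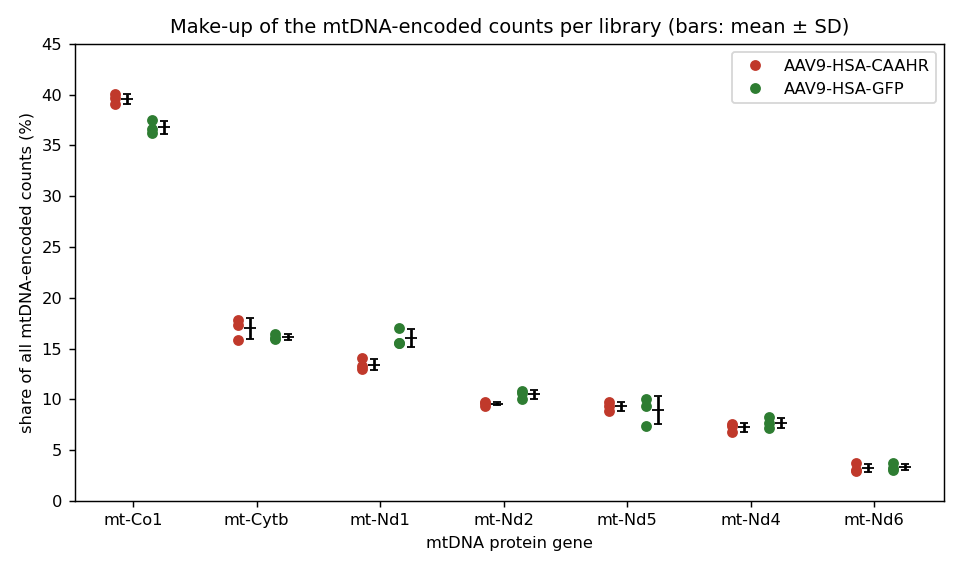
Share of each library's mtDNA counts, in percent, for the 7 protein genes with the most counts, with red points for the 3 AAV9-HSA-CAAHR libraries, green points for the 3 AAV9-HSA-GFP libraries and black bars for mean ± SD. The groups are apart for mt-Co1 (39.1% to 40.03% against 36.3% to 37.5%), mt-Nd1 and mt-Nd2, and overlap for the others.

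Since the shares of a library sum to 100%, they are not independent, and a larger mt-Co1 share lowers the rest. With mt-Co1 left out of the total, mt-Nd1 made up 23.4%, 21.8% and 21.5% against 24.4%, 24.9% and 26.9%, still without overlap. On that total mt-Nd2 overlapped (15.6% to 16.0% against 15.8% to 17.02%) and mt-Cytb was higher without overlap (26.4% to 29.6% against 25.0% to 26.0%). With mt-Nd1 left out of the total, mt-Co1 remained higher (45.04% to 46.6% against 42.9% to 44.4%) and mt-Nd2 lower (10.8% to 11.2% against 12.1% to 12.8%). As a ratio of these genes, chosen because their shares lay apart in opposite directions and so given with no test, mt-Nd1 had 35.1, 33.98 and 32.6 counts per 100 mt-Co1 counts in CAAHR muscle and 42.9, 41.5 and 46.4 in GFP muscle, means of 33.9 ± 1.26 and 43.6 ± 2.55 (SD, n = 3 each). In all, 9 of the 32 tested members did not overlap as shares of mtDNA counts, or 28.1%. Of all tested genes 15.9% did not overlap relative to the same totals, but nuclear genes take on the variation of the mtDNA total there, so this is no like baseline. In CPM, which is not the same measure, 29.9% of all tested genes and 1 of the 32 members did not overlap. Neither value shows whether the members' count on shares is an excess, which was not tested. Besides those named, mt-Ty, mt-Tr and mt-Te were higher in CAAHR muscle, and mt-Tf, mt-Tv and mt-Tp lower.

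Nuclear genes that express and partner the mitochondrial genome were called rarely. Of 145 tested genes in 7 lists, 1 (0.690%) had an edgeR adjusted p under 0.05, against 7.6% of all genes. It was Polg, the catalytic subunit of the mtDNA polymerase, at 41.8, 38.7 and 43.7 CPM in CAAHR muscle and 29.1, 29.9 and 28.8 CPM in GFP muscle, with every CAAHR value above every GFP value (log2 fold change 0.50 ± 0.09, edgeR adjusted p = 0.00938). It was 1 of 14 genes of mtDNA replication and nucleotide supply. None of 36 tested genes of mtDNA transcription and RNA handling was called, with a median log2 fold change of 0.02, and none of 22 genes of mitochondrial aminoacyl-tRNA synthesis, with a median of 0.00. Nuclear subunits of complex I (36 tested, median 0.10), complex III (9 tested, 0.12), complex IV (12 tested, 0.10) and complex V (16 tested, 0.06) also held no called gene. The median over all tested genes was 0.01. The fitted fold change was above 0 for 26, 8, 12 and 13 of these subunits, a split that describes these libraries and was not tested.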

How the data were processed

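Poly(A)-selected RNA from 6 muscles, 1 library each, was sequenced as paired ends of 150 bases. The authors trimmed reads with Trimmomatic (0.36), aligned them to GRCm38 with STAR (2.5.2b; tools and versions per the submitters' processing notes) and deposited whole-number counts of uniquely aligned exonic reads per gene from featureCounts, neither normalised nor pooled. That choice lowers genes with near-identical copies. The authors counted by strand if the libraries were stranded, and whether they were is not given in the sources used here.

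Groups and replicate numbers came from the sample titles. Counts were tested with edgeR 4.0.16 in R 4.3.3 (filterByExpr, TMM, robust quasi-likelihood F test, Benjamini-Hochberg adjustment over 15847 genes), with a threshold of 0.05, after the procedure was tested on simulated data. The study used DESeq2, which served as an alternative (1.42.0). CPM used TMM-scaled library sizes of 41607313 to 60958936. Shares were compared by two-sided exact permutation. With 43432994 to 58825752 counts per library, counting error was small beside the spread between libraries except for the lowest transfer RNA genes. Nothing says how the muscles map to cages or litters, so p-values measure the spread between these samples. Nuclear copies were sought with BLAST+ 2.17.0 (E-value limit 1e-10) among GENCODE M21 transcripts, and a match of at least 98% identity counted as the copy. Anticodons were located by letter and stem pairing.

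Every gene whose symbol starts with mt- was named. Of the lists, genes past the threshold were named, and of the nuclear copies, annotated genes in the matched stretch with at least 10 counts in 1 library. The members and lists were chosen with earlier results of these data known. Alternatives were other scalings, filters and tests, other totals and lengths, and leaving out each library. The share of ribosomal RNA genes had been planned and was not computed.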

Additional observations from a re-analysis of the deposited data

How the results depend on the processing

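No paired analysis was possible because no replicate number occurs in both groups. The number of called members was 1 (mt-Tp) with DESeq2 size factors, upper-quartile scaling, nuclear counts only in the scaling, at least 10 counts in every library and DESeq2, 0 with library size only, and 4 with no filter on low counts (mt-Te, mt-Tm, mt-Tp and mt-Tv). It ranged from 0 to 5 with 1 library left out. The 5 calls came without CAAHR replicate 34, where 10.7% of all genes were called, and 0 came without CAAHR replicates 31 or 36 or GFP replicates 43 or 46, where 3.28% to 4.28% were. Called list genes numbered 3 with library size only (9.31% of all genes called), 7 with no filter (8.62%) and 2 by DESeq2 (10.4%). Genes with 95% of windows identical to a nuclear transcript numbered 5 at 75 bases as at 150, and 3 at 300 bases, for which mt-Nd4l is too short and mt-Nd3 had 87.8%. Without the 20 most abundant nuclear genes the difference in share was -0.632 points for all members and -0.636 for protein genes, and with the TMM-scaled library size -0.0310 and -0.0359. With 1 library left out these differences ran from -0.678 to 1.46 and from -0.675 to 1.44, and that of transfer RNA genes from -0.00283 to 0.0173, each negative value being the one without CAAHR replicate 31. The median log2 fold change of members ran from -0.11 to 0.44. Of 447 checks of single genes with an adjusted p, 408 kept their direction and side of the threshold, 25 changed sign, 8 gained a call and 6 lost one. Of 54 checks of direction alone, 53 kept it.

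With 1 library left out, log2 fold changes that changed sign ran from -0.34 to 0.56 for mt-Tl1, -0.14 to 0.91 for mt-Tw, -0.0109 to 0.78 for mt-Ta, -0.33 to 0.27 for mt-Tn, -0.24 to 0.85 for mt-Tc, -0.0866 to 0.21 for mt-Co1, -0.14 to 0.14 for mt-Co3, -0.0697 to 0.52 for mt-Nd3, -0.13 to 0.17 for mt-Nd5, -0.34 to 0.12 for mt-Nd6 and -0.0583 to 0.15 for mt-Cytb. Upper-quartile scaling gave -0.0192 for mt-Tn, -0.0203 for mt-Nd5 and -0.0122 for mt-Cytb, library size only 0.0795 for mt-Co3 and 0.0611 for mt-Nd6, and no filter 0.0057 for mt-Co3. The shares of mtDNA counts kept their direction for mt-Co1 (2.53 to 3.14 points), mt-Nd1 (-2.93 to -2.13) and mt-Nd2 (-1.15 to -0.768). An edgeR fit of every tested gene to the mtDNA totals, chosen after seeing the data, called 1 member, mt-Ty (log2 fold change 1.05, adjusted p = 0.000306), gave mt-Co3 0.00062 (0.00065 in the fit of members alone) and did not call mt-Co1, mt-Nd1 or mt-Nd2. Its SEs (0.31 for mt-Co1 and 0.29 for mt-Nd1, whose shares varied little within groups) did not reflect the spread of these genes, so neither its call nor its missing calls are relied on. The cause of these changes was not tested.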
